A study of Mus musculus with 9 samples.

Results

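The genes described here are p53 targets and triggers of apoptosis, a set of 10 named by symbol: Trp53, Cdkn1a, Mdm2, Ccng1, Bbc3, Bax, Pmaip1, Sesn2, Phlda3 and Zmat3. Each was to be read from the probe set that carries its symbol alone, and 7 of the 10 had such a probe set among the 19938 genes tested. These were Mdm2, Ccng1, Zmat3, Phlda3, Sesn2, Bbc3 and Pmaip1, with 1 probe set each. Cdkn1a shares its probe set with another gene symbol and gets no value, and Trp53 and Bax were not analysed here. No statement below therefore covers the transcript of p53 itself, of the cell cycle inhibitor Cdkn1a or of the death effector Bax.

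Expression was read on 9 Affymetrix Mouse Gene ST 1.0 arrays from RNA of the brain ventricular zone of untreated newborn C57BL/Ka mice. The ventricular zone is the progenitor layer along the cerebral ventricles, and its cells were dissected and lysed without culture. The genotypes were Prdm16LacZ/LacZ (KO), Prdm16LacZ/+ (HET) and Prdm16+/+ (WT), with 3 arrays each. The product of Prdm16 is a zinc finger protein that regulates transcription in stem cells and brown fat. The labels do not say whether the arrays of a genotype came from separate animals, so the p-values reflect array-to-array spread that may be technical only.

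p53 is a transcription factor that is made continually and destroyed just as fast, because the ubiquitin ligase Mdm2 marks it for degradation. DNA damage and other stresses release it, and it then switches on genes that stop the cell cycle, adjust metabolism or permeabilise mitochondria and start apoptosis. Neural progenitors of the ventricular zone are known for a ready p53-dependent death after DNA damage or delayed mitosis, and because p53 is governed largely at the protein level, its target transcripts are the usual readout of its activity.

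The DNA element that p53 binds is built of decamers known as the p53 half-site, which reads alike on both strands. The half-site was searched without mismatch as RRRCWWGYYY, where R is A or G, W is A or T and Y is C or T. The windows run 250 bases before to 50 bases after each RefSeq gene start (GRCm38.p6). Of the 7 measured genes, 5 matched a window, and 2 of these, Mdm2 and Ccng1, held 1 half-site each, while 9.55% of all 27025 genes had a half-site in some window. The 5 genes had 7 windows in all, and 8.36% of all 32851 windows held a half-site. Phlda3, Sesn2 and the 3 starts of Bbc3 had no exact match to these letters in their windows. Bases outside the windows were not searched, so p53 elements elsewhere in any of the genes would not be seen. A match in a window need not be the element that p53 uses. The 250 bases before the start are shown for Mdm2 (chr10:117710759-117711008, minus strand) and Ccng1 (chr11:40755287-40755536, minus strand), the measured p53 targets with a half-site in the window, with the half-site in capitals.
Mdm2: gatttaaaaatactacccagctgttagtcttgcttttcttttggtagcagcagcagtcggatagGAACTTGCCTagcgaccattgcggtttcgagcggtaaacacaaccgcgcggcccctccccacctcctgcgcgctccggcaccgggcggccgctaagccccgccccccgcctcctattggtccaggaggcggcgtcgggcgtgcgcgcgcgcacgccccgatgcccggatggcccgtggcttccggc
Ccng1: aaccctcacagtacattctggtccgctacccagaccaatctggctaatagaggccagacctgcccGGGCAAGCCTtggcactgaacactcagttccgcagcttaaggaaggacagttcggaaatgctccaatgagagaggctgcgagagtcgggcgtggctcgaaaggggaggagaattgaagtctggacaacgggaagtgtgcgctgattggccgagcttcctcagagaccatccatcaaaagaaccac
The half-site began 186 bases before the start of Mdm2 and 185 bases before that of Ccng1. In Ccng1 the decamer directly before it matched the half-site with 1 mismatch, which is the tandem arrangement of a full p53 element. The best partner within 13 bases of the Mdm2 half-site had 4 mismatches. A half-site with a partner of at most 1 mismatch was present in 1.09% of all windows. These matches are descriptions of sequence and not measured binding sites.

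Prdm16 itself was measured first, as a check of the labels. Its log2 level was 5.69, 6.41 and 6.17 in KO, 6.995, 7.34 and 6.998 in HET and 7.62, 7.57 and 7.23 in WT. The fall in KO against WT (limma adjusted p = 0.010; log2 change -1.38, SE 0.18) was a call lost without WT replicate 1 (adjusted p = 0.076), without WT replicate 2 (0.069) and with only the KO and WT arrays in the fit (0.080). Prdm16 did not pass in KO against HET, where the groups did not overlap either (log2 change -1.02, SE 0.18, limma adjusted p = 0.078; called in 2 of 18 other settings), or in HET against WT, where they overlapped (-0.36, SE 0.18, adjusted p = 0.993). Whether the probes lie in the disrupted part of the gene is not known here.

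No measured p53 pathway gene passed the test between any genotypes. In KO against WT, 0 of the 7 measured genes passed by limma with Benjamini-Hochberg adjustment over all genes (adjusted p under 0.05), where 0.451% of all genes passed. In HET against WT 0 of 7 passed, where 0% of all genes did, and in KO against HET 0 of 7, where 0.206% did. At an unadjusted p under 0.05 the count was also 0 of 7 in each comparison, beside 6.15%, 4.05% and 6.16% of all genes in the same order. The smallest adjusted p among the 7 was 0.927 in KO against WT, 0.993 in HET against WT and 0.834 in KO against HET. KO against WT and HET against WT share the WT arrays and are not independent. In tissue RNA, fewer cells of a type and less RNA per cell cannot be told apart.

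Mdm2, which is both the main inhibitor of p53 and one of its targets, is the feedback arm of the pathway. Its log2 level was 9.10, 8.998 and 9.29 in KO, 9.10, 9.04 and 9.03 in HET and 9.13, 9.15 and 9.26 in WT. KO replicates 2 and 3 gave the lowest and the highest of the 9 values, so the KO group enclosed the other groups. The KO level was 0.964-fold that of WT (95% interval 0.842 to 1.10). The 3 HET arrays lay below the 3 WT arrays, by a log2 change of -0.12 (SE 0.088, fold 0.918, 95% interval 0.801 to 1.05), which did not pass the test (limma unadjusted p = 0.19, adjusted p = 0.993). KO stood at 1.05-fold of HET (95% interval 0.917 to 1.20).

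Ccng1 and Zmat3 are targets that act on the response itself. Ccng1, cyclin G1, which recruits a phosphatase to Mdm2, was measured at 8.56, 8.59 and 8.54 in KO, 8.48, 8.56 and 8.56 in HET and 8.74, 8.54 and 8.56 in WT. WT replicate 1 was the high array and HET replicate 1 the low one, and the groups overlapped in all 3 comparisons. Of the 7 genes Ccng1 had the smallest spread within genotypes, an SD of 0.072 on the log2 scale, beside 0.13 for the median of all genes. Its KO level was 0.964-fold that of WT (95% interval 0.855 to 1.09) and its HET level 0.945-fold (0.838 to 1.07). KO stood at 1.02-fold of HET (95% interval 0.904 to 1.15).

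Zmat3, a zinc finger protein that binds RNA, stood at 7.05, 7.07 and 7.19 in KO, 7.04, 6.92 and 6.92 in HET and 7.01, 7.05 and 6.85 in WT. The KO arrays lay above every HET and WT array, although the gap between KO replicate 1 (7.054) and WT replicate 2 (7.046) was small beside the spread. The fold was 1.10 in KO against WT (95% interval 0.968 to 1.25, log2 change 0.14, SE 0.083, limma unadjusted p = 0.13) and 1.11 in KO against HET (95% interval 0.974 to 1.26). Neither passed, and without WT replicate 3 the log2 change in KO against WT was 0.078. HET stood at 0.994-fold of WT (95% interval 0.876 to 1.13). Zmat3 was the 1 gene of 7 whose groups did not overlap in KO against WT, where 9.98% of all genes did not overlap, and also the 1 of 7 in KO against HET, where 6.54% did not.

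**Figure D1:**
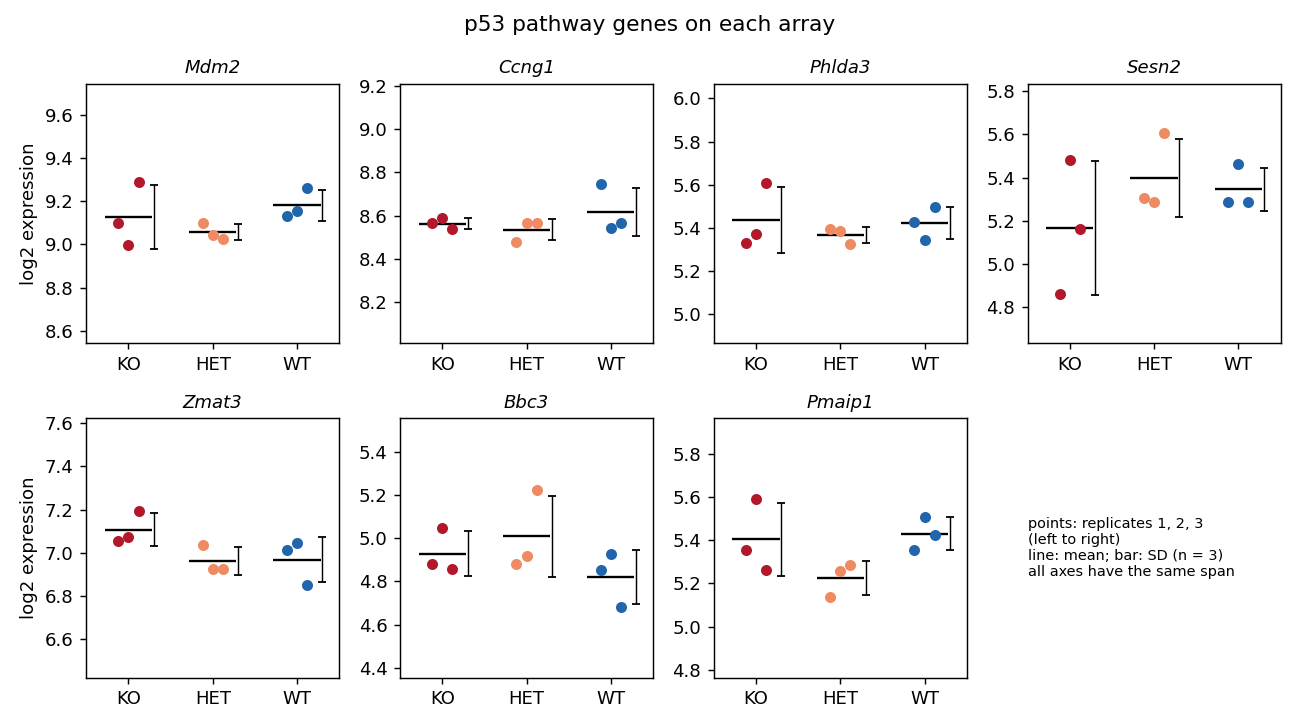
Log2 expression of the 7 measured p53 pathway genes on each array, 1 panel a gene; points are replicates, lines are group means and bars are SDs (n = 3), and every vertical axis spans the same length. Zmat3 is highest in the KO arrays, Mdm2 and Pmaip1 are lower in the HET than in the WT arrays, and Sesn2 spreads the most within KO.

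Phlda3 and Sesn2 are targets that temper growth signals. Phlda3, a protein that competes with the kinase Akt for membrane lipids, had levels of 5.33, 5.37 and 5.61 in KO, 5.39, 5.38 and 5.33 in HET and 5.43, 5.35 and 5.495 in WT. KO replicate 3 was the high array, and the groups overlapped in every comparison. Its KO level was 1.01-fold that of WT (95% interval 0.880 to 1.16), the change nearest to 0 among the 7 genes in that comparison. Its HET level was 0.963-fold that of WT (95% interval 0.840 to 1.10), and its KO level 1.05-fold that of HET (95% interval 0.914 to 1.20).

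Sesn2, a leucine sensor that restrains mTORC1 and that also answers to the stress factor Atf4, was the most variable of the 7, with an SD within genotypes of 0.22. Its level was 4.86, 5.48 and 5.16 in KO, 5.30, 5.29 and 5.61 in HET and 5.29, 5.46 and 5.29 in WT. KO replicate 1 was the lowest array and KO replicate 2 lay above every WT array, so KO spanned the WT range. The KO level was 0.885-fold that of WT (95% interval 0.704 to 1.11, log2 change -0.18, SE 0.15) and 0.852-fold that of HET (95% interval 0.678 to 1.07), and neither passed (limma adjusted p = 0.983 and 0.862). HET stood at 1.04-fold of WT (95% interval 0.827 to 1.31), with the same sign in all settings but the 1 without HET replicate 3. The size rested on single KO arrays: the log2 change against WT was -0.02 without KO replicate 1 and -0.33 without KO replicate 2, where it did not pass over all genes either (adjusted p = 0.46).

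Bbc3 and Pmaip1 encode PUMA and NOXA, the BH3-only proteins through which p53 starts apoptosis by neutralising survival proteins of the BCL2 family. Bbc3 lay at 4.88, 5.05 and 4.86 in KO, 4.88, 4.92 and 5.23 in HET and 4.85, 4.93 and 4.68 in WT. HET replicate 3 was high and WT replicate 3 low, and the groups overlapped. The fold was 1.08 in KO against WT (95% interval 0.909 to 1.28) and 1.14 in HET against WT (95% interval 0.960 to 1.35), and KO stood at 0.947-fold of HET (95% interval 0.799 to 1.12). Without HET replicate 3 the log2 change in HET against WT was 0.078, against 0.19 with it. For KO against WT it was 0.038 without WT replicate 3 and 0.047 without KO replicate 2, against 0.11 with all arrays.

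Pmaip1 lay at 5.35, 5.59 and 5.26 in KO, 5.14, 5.26 and 5.28 in HET and 5.35, 5.51 and 5.42 in WT. The HET arrays all lay below the WT arrays, while KO reached from the HET range to above WT. HET against WT gave the smallest unadjusted p of the 21 gene comparisons, 0.062, with a fold of 0.869 (95% interval 0.749 to 1.01, log2 change -0.20, SE 0.097, limma adjusted p = 0.993). KO stood at 0.982-fold of WT (95% interval 0.847 to 1.14) and at 1.13-fold of HET (95% interval 0.974 to 1.31). That log2 change against HET was 0.18 with all arrays and 0.083 without KO replicate 2. Mdm2 and Pmaip1 were the 2 of 7 genes whose groups did not overlap in HET against WT, where 6.85% of all genes did not.

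Seen together, the 7 genes had no common direction. In KO against WT 3 lay above 0 and 4 below, from -0.18 for Sesn2 to 0.14 for Zmat3 on the log2 scale, with a median of -0.03 beside 0.0064 for all genes. In HET against WT 2 lay above 0 and 5 below, from -0.20 for Pmaip1 to 0.19 for Bbc3, with a median of -0.05 beside 0.0039. In KO against HET 5 lay above 0 and 2 below, from -0.23 for Sesn2 to 0.18 for Pmaip1, with a median of 0.07 beside 0.0029. The median absolute log2 change of the 7 was 0.053 in KO against WT, 0.081 in HET against WT and 0.079 in KO against HET, beside 0.073, 0.073 and 0.078 over all genes. Arrays did not move all genes at once either: KO replicate 3 held the highest value of 3 genes (Mdm2, Phlda3 and Zmat3), but of none of the death triggers.

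The 95% intervals give the sizes of change that the spread between arrays leaves. In KO against WT the smallest change among the 90 called genes was 0.43 on the log2 scale, or 1.35-fold. Those genes were picked by the same test, so this size is not a detection limit for the 7. For 6 of the 7 genes the whole 95% interval lay inside that size in either direction, and the exception was Sesn2. Over the 7 genes these intervals reached from 0.704-fold to 1.28-fold. Phlda3, Sesn2, Bbc3 and Pmaip1 lay below the median of all probe sets on all 9 arrays, and detection calls were not used here. Part of such a value can be background. Mdm2, Ccng1 and Zmat3 lay above the median on every array.

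**Figure D2:**
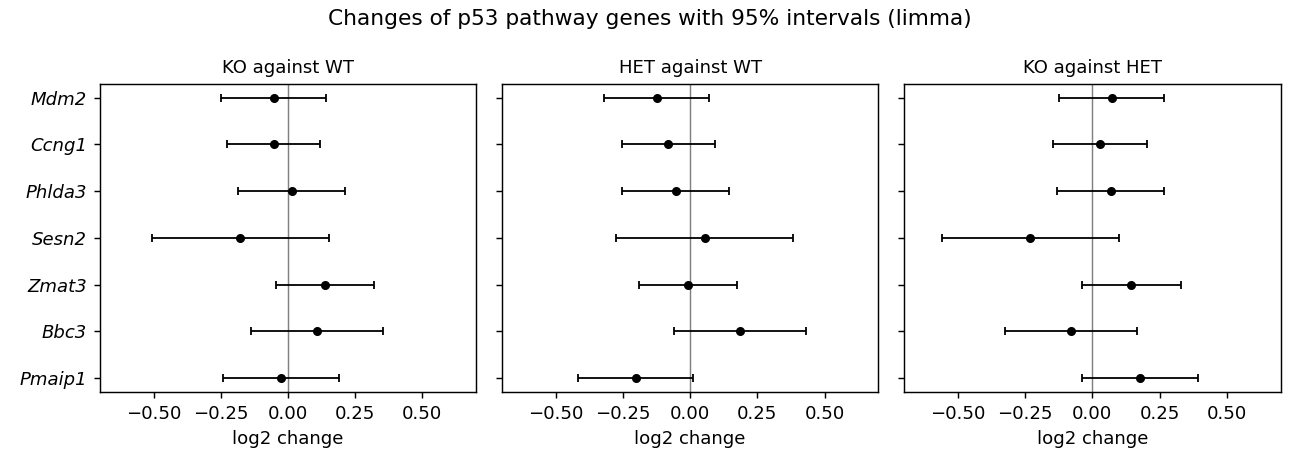
Log2 changes of the 7 measured genes in KO against WT, HET against WT and KO against HET; points are limma estimates and bars 95% intervals (n = 3 arrays per genotype). Every interval contains 0, and Sesn2 has the widest.

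Genes around this core were read from 7 lists with 118 of 124 listed genes measured. In KO against WT 0 rose and 1 fell, where 0.451% of all genes passed. There 5 of the 118 (4.24%) had an unadjusted p under 0.05, beside 6.15% of all genes. In HET against WT 0 passed and 6 (5.08%, beside 4.05%) had such a p, and in KO against HET 0 passed and 8 (6.78%, beside 6.16%) did.

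Of the other p53 targets 30 of 31 were measured, and 0 passed the adjusted test in any comparison. In KO against WT 15 lay above 0 and 15 below, with a median of 0.0021 and a range of -0.25 to 0.28 on the log2 scale. The range was wider in the other comparisons, -0.20 to 0.47 in HET against WT and -0.72 to 0.28 in KO against HET. Both 0.47 and -0.72 belonged to 1 gene, Plk2. It lay at 9.44 in HET replicate 1 but at 10.72 and 10.83 in HET replicates 2 and 3. In KO against WT, 3 genes are named. The smallest unadjusted p belonged to Triap1, a mitochondrial protein that restrains apoptosis (log2 change 0.28, SE 0.11), followed by Gadd45a, a growth arrest and DNA repair gene (0.22, SE 0.10), and Eda2r, a receptor of the tumour necrosis factor family (0.23, SE 0.11). None of these passed (limma adjusted p = 0.714, 0.835 and 0.857). In HET against WT the 3 genes lay at 0.31, 0.16 and -0.05 in the same order, and in KO against HET at -0.03, 0.06 and 0.28. Triap1 was thus as high in HET as in KO.

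Regulators and relatives of p53 also gave 0 calls among 20 genes, with 14 above 0 and 6 below in KO against WT and a median of 0.07. Atr, the kinase that answers to stalled replication, lay at -0.26 (SE 0.12), the p53 relative Trp73 at -0.17 (SE 0.11) and the checkpoint kinase Chek2 at 0.12 (SE 0.080). None of these passed the test.

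The other BCL2 family genes and the caspases and death machinery gave no call. Of the other BCL2 family, 12 of 13 genes were measured, with a median of 0.04 in KO against WT. The survival genes Bcl2l1, which encodes BCL-XL, and Bcl2 lay at 0.21 (SE 0.091) and 0.18 (SE 0.084), and Bak1, a pore former like Bax, at 0.15 (SE 0.082). Of caspases and death machinery 18 of 21 were measured, with a median of 0.04 and a range of -0.18 to 0.13. Aifm1, a mitochondrial flavoprotein, lay at -0.16 (SE 0.086), the executioner Casp6 at -0.13 (SE 0.076) and Birc3, an inhibitor of apoptosis, at 0.12 (SE 0.084).

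Cell cycle genes were read beside Ccng1. Of the 6 other CDK inhibitors 0 passed, with Cdkn1c, which encodes p57, at 0.24 (SE 0.089), Cdkn2b, which encodes p15, at -0.22 (SE 0.098) and the phosphatase gene Cdkn3 at 0.12 (SE 0.089) in KO against WT. Of 19 measured proliferation genes 0 passed, with a median of 0.05. Aurkb, a kinase of chromosome segregation, lay at 0.31 (SE 0.12), the mitotic kinase Plk1 at 0.21 (SE 0.13) and Tyms, which makes thymidylate, at -0.23 (SE 0.15). The mean level over the proliferation list spread from 7.90 to 8.35 within the KO arrays, 7.90 to 8.12 within HET and 7.93 to 8.12 within WT, so the genotypes overlapped.

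Sesn2, Bbc3 and Pmaip1 can also be switched on by the integrated stress response, whose central factor is Atf4. The median of its 13 listed genes in KO against WT was -0.01. Of these genes 1 fell in KO against WT, where 0.451% of all genes passed, and 0 in the other comparisons. The gene was Slc7a11, the cystine importer that feeds glutathione synthesis, a target of Atf4 that p53 is known to repress. Its level was 4.56, 4.85 and 4.92 in KO, 5.39, 5.03 and 5.07 in HET and 5.98, 5.38 and 5.82 in WT. All KO arrays lay below all HET and WT arrays, while HET replicate 1 lay just above WT replicate 2. Of all genes, 9.98% did not overlap in KO against WT and 6.54% in KO against HET.

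Slc7a11 changed by -0.95 in KO against WT (SE 0.16, limma adjusted p = 0.038). It was among the dimmest 1 in 3 genes, so the setting without these did not test it. In KO replicate 1 it lay below the lower quartile of that array (4.58), and part of its value can be background. The call was lost in 10 of 17 other settings, among them without any 1 array but HET replicate 1 and WT replicate 2, with a log2 change between -1.13 and -0.83 and an adjusted p between 0.020 and 0.19 over the 17. HET against WT stood at -0.56 (SE 0.16), which did not pass (limma adjusted p = 0.993). Atf4 lay at 0.13 (SE 0.10) and Phgdh, an enzyme of serine synthesis, at -0.18 (SE 0.12), and neither passed.

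**Figure D3:**
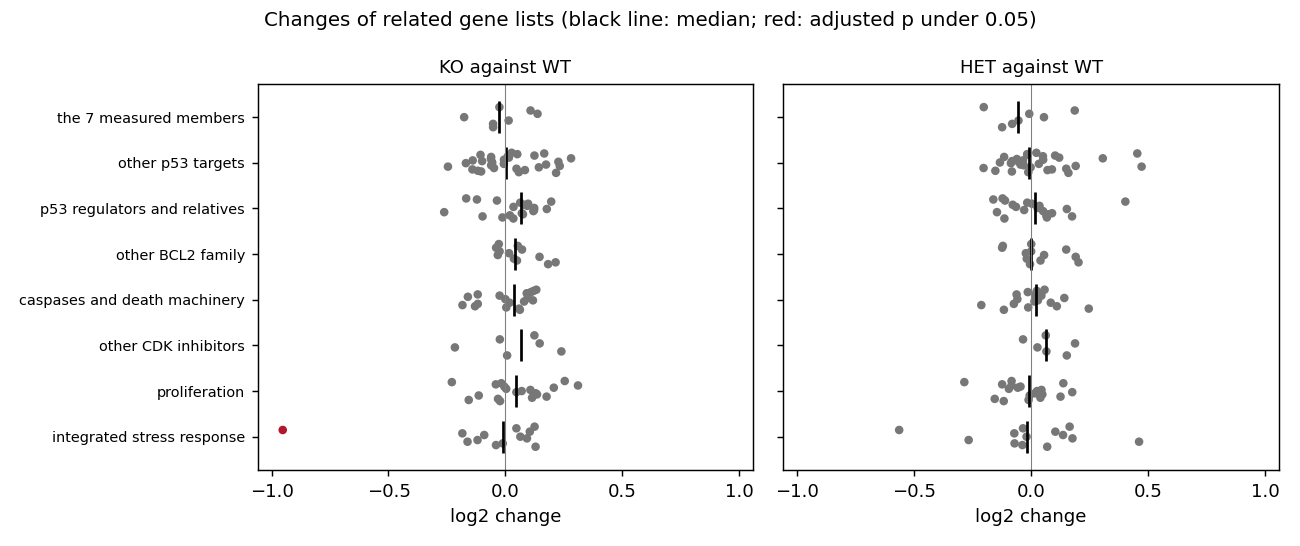
Log2 changes in KO against WT and in HET against WT of the 7 measured p53 pathway genes and of the genes of 7 related lists; each point is a gene, black lines are medians, and red marks an adjusted p under 0.05. The 1 red point is Slc7a11 at -0.95, and the medians lie close to 0.

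Markers of the cells in the dissected tissue were read on the same arrays. Of 10 markers of ventricular zone progenitors 9 lay, on average over the arrays, above the mean of the array medians, with a mean level between 8.31 and 8.54 in KO, 8.24 and 8.48 in HET and 8.42 and 8.52 in WT. All 8 neuronal markers also lay above it, at a mean of 9.53 to 9.74 in KO, 9.50 to 9.98 in HET and 9.57 to 9.61 in WT. Of the 8 ependymal markers only 2 lay above it, and the 8 averaged 5.53 to 5.87 in KO, 5.99 to 6.15 in HET and 6.17 to 6.19 in WT. In KO against WT all 8 lay below 0, and 7 had an unadjusted p under 0.05, beside 6.15% of all genes. Of these markers 0 passed the adjusted test there. The list was chosen with earlier results of these data known, and markers of 1 cell type can move together. The 7 are therefore not independent counts. In KO against HET 1, the radial spoke gene Rsph4a, fell (limma adjusted p = 0.044), where 0.206% of all genes passed. That call was lost in 13 of 18 other settings, among them without any 1 array but KO replicate 1 (adjusted p up to 0.23). Of 42 other markers, for the oligodendrocyte lineage, choroid plexus, microglia, endothelial cells and pericytes, red blood cells and meninges, 39 were measured. The 1 that passed in any comparison was Ogn, a meningeal proteoglycan, in KO against WT, where 0.451% of all genes passed. Its log2 change was -1.37 (limma adjusted p = 0.012). That call was lost in 4 of 18 other settings, among them without WT replicate 1 (adjusted p = 0.087) or WT replicate 2 (0.080). The part of these cell types in the values of the p53 pathway genes was not tested.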

How the data were processed

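The authors deposited log2 values of 28940 probe sets on 9 arrays; RMA, affy and limma are named per the submitters' processing notes, without versions or order. The medians of the arrays ran from 5.80 to 5.92, and the number of arrays limits the precision. Of the probe sets, 21789 had 1 gene symbol in the platform annotation, 1621 had several and 5530 were not listed; those with 1 symbol were used, the highest-mean probe set per gene (19938 genes), and 21698 matched the GRCm38.p6 gene table by gene ID.

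All 9 arrays entered 1 limma fit (R 4.3.3, limma 3.58.1; lmFit, eBayes, two-sided) with a mean per genotype and Benjamini-Hochberg adjustment over all genes. The scripts were tested on simulated data. The fit was repeated with a replicate block, with only the groups compared, with trend and robust eBayes, array weights, a filter on dim genes, mean of probe sets, quantile normalization, median centring and each array left out. Leaving out HET replicate 1 and KO replicate 2, which had the lowest array weights (0.547 and 0.364), was added after seeing the data. The members and lists were chosen with earlier results of these data known. Named are up to 3 genes of each list, those lowest in unadjusted p for KO against WT, and every called gene. Plk2 is named besides these, as the gene at 2 ends of the ranges of its list. A search for genes alike in pattern was set for Trp53 and Cdkn1a and so was not run.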

Additional observations from a re-analysis of the deposited data

How the results depend on the processing

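The count of p53 pathway genes called was 0 in all 3 comparisons under each of the 18 settings run. Of 375 gene values, 356 kept their direction and 19 turned it, all without a call; 11 had an unadjusted p under 0.05, all of Sesn2 or Pmaip1, and the smallest adjusted p was 0.287 (Sesn2 in KO against HET without HET replicate 1 and KO replicate 2). Many of the 356 could not turn. The replicate block, only the groups compared, trend and robust eBayes, the filter on dim genes and the mean of probe sets left each log2 change as it was. Leaving out an array of the genotype that is not compared did the same. The tally is therefore not a measure of stability. Bbc3 was not tested with the dimmest 1 in 3 genes left out. Phlda3 lay at -0.011 in KO against WT with array weights, Zmat3 at 0.0058 in HET against WT with median centring, and, without HET replicate 1 and KO replicate 2, Mdm2 at 0.013 in KO against WT and Ccng1 at -0.013 in KO against HET. With 1 array left out, values in KO against WT ran from -0.13 to 0.013 for Mdm2, -0.091 to 0.011 for Ccng1, -0.073 to 0.067 for Phlda3 and -0.12 to 0.044 for Pmaip1. In HET against WT they ran from -0.049 to 0.11 for Sesn2 and -0.068 to 0.030 for Zmat3, and in KO against HET from -0.0094 to 0.14 for Mdm2, -0.00033 to 0.043 for Ccng1, -0.018 to 0.12 for Phlda3 and -0.14 to 0.030 for Bbc3. The cause was not tested.

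The number of calls among all genes, the background of these counts, moved more. Against 90 in KO against WT, it was 33 with only the groups compared, 151 with array weights, 50 without HET replicate 1 and KO replicate 2, and 23 to 77 with 1 array left out. Against 41 in KO against HET, it was 8 with only the groups compared, 21 with median centring and 12 to 75 with 1 array left out. With the replicate block it was 19 in KO against HET and 72 in KO against WT, and Slc7a11 (adjusted p = 0.065) and Rsph4a (0.068) lost their calls. Same-numbered arrays of different genotypes had deviations that correlated between -0.34 and 0.055 across genes. Arrays with different numbers gave correlations between -0.16 and 0.31, so the highest value was not among the same-numbered arrays. The pairs share arrays and are not independent, so these ranges cannot decide whether the numbers pair the arrays. In HET against WT the number of calls was 0 in every setting.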

Other observations

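Many genes had exactly equal deposited values on several arrays. Ccng1 had 1 value on 4 arrays (KO replicate 1, HET replicates 2 and 3 and WT replicate 3), Sesn2 on 3 (HET replicate 2 and WT replicates 1 and 3), and Bbc3 and Pmaip1 on 2 each. Of all genes, 12543 (62.9%) had a value shared by at least 2 arrays. Where equal values fall within a genotype, as for Ccng1 and Sesn2, they can narrow the SD, the SE and the interval.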
